A study of Homo sapiens with 30 samples.

Results

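The core pluripotency genes examined here were POU5F1, NANOG, PRDM14, ZFP42, DPPA4, DPPA2, LIN28A, LIN28B and DNMT3B, 9 of the 20033 protein-coding genes in the GRCh38 annotation used. The members were the ATAC-seq peaks that overlapped the body of any of these genes with 50 kb on each side. Peaks of the 10 deposited lists were merged where they overlapped, which gave 262 regions near the 9 genes out of 493444 on chromosomes 1 to 22, X and Y. Of the 262, 153 were open in the pluripotent cells, out of 200255 such regions in the genome. A region was called open in a population when that population's list had at least 1 peak in it, and closed when it had none.

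The cells were H1, an established human embryonic stem cell line, wild-type, grown as pluripotent cells (hPSC, day 0) and then led into neural ectoderm. Definitive ectoderm (DE, day 1) was made from hPSC in CDM2 medium with A8301 at 1 µM, trametinib at 250 nM, C59 at 1 µM and LDN193189 at 100 nM. From DE, anterior neural ectoderm (aNE, day 2) was made with A8301, LDN193189, C59 at 1 µM and thiazovivin, and posterior neural ectoderm (pNE, day 2) with A8301, LDN193189, TTNPB at 50 nM, FGF2 at 20 ng/mL, XAV939 at 1 µM and thiazovivin. Each was then carried to day 4 in telencephalon, midbrain or hindbrain medium, giving aNE_T, aNE_M and aNE_H in the anterior branch and pNE_T, pNE_M and pNE_H in the posterior branch. Telencephalon medium held XAV939, LDN193189 and FGF2 on day 3, while the composition of the other day 4 media is not given in the sources used here. All 10 groups therefore share the same single line, and every group after hPSC shares the day 1 treatment. OmniATAC-seq, in which the Tn5 transposase cuts accessible chromatin, was run on 50000 cells per library in 3 biological replicates per group (30 libraries).

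Pluripotent cells are held in their state by a small circuit of transcription factors in which OCT4 (the product of POU5F1) pairs with SOX2 on DNA and in which NANOG and PRDM14 hold back differentiation. Around that circuit, DPPA2 and DPPA4 keep developmental promoters free of DNA methylation, LIN28A and LIN28B block maturation of the let-7 microRNAs, and DNMT3B lays down new DNA methylation. Neural induction under SMAD inhibition silences most of the circuit, while LIN28 proteins and DNMT3B are also known in early neural progenitors.

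Each group was deposited as 1 peak list with positions only: the values carry no error between replicates, no test between groups was possible, and intervals cover the counting of regions alone. The lists held between 167792 (aNE) and 313095 (pNE_H) peaks on the main chromosomes, and pNE_H covered 152% of the bases that hPSC covered. The bases inside peaks near the neural markers PAX6, SOX1, LHX2, SIX3 and OTX2 summed to between 41166 and 54434 in the 10 lists, with 47534 in hPSC. Mesendoderm markers (22192 to 30576 bases) and surface ectoderm and crest markers (36443 to 59936 bases) also had peaks in every list, and none of these marker windows was without peaks in any list.

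Of the 153 regions open in hPSC, 47 had no peak in DE, 30.7% (Wilson 95% interval 24.0 to 38.4) against 21.8% of all hPSC regions. By day 2, 69 had no peak in aNE (45.1%, 37.4 to 53.0, against 38.9%) and 64 none in pNE (41.8%, 34.3 to 49.8, against 35.1%), and both intervals include the background. On day 4 the number without a peak was 69 in aNE_T (45.1% against 36.6%), 72 in aNE_M (47.1% against 35.6%) and 77 in aNE_H (50.3% against 39.3%). In the posterior branch it was 78 in pNE_T (51.0% against 42.8%), 82 in pNE_M (53.6% against 42.8%) and 70 in pNE_H (45.8% against 32.2%). Losses near the 9 genes thus came mainly in the first 2 days, as they did over all hPSC regions. Of the regions open in hPSC and DE, 24.5% had no peak in aNE and 25.5% none in pNE. Over all such regions the shares were 24.7% and 22.9%, so the day 2 step was near the background. In a bulk library, fewer cells with open chromatin and lower accessibility in each cell cannot be told apart.

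Counting only regions that did not come back, 28 of the 153 (18.3%, 13.0 to 25.2) were open in hPSC alone, closed on day 1 in both branches, against 11.4% of all hPSC regions. A further 9 (5.88%, 3.13 to 10.8, against 6.83%) were open in hPSC and DE only and closed on day 2 in both branches. With no peak in any of the 3 day 4 lists of a branch taken as closed by day 4, 51 had closed in the anterior branch (33.3%, 26.4 to 41.1, against 26.8%), 61 in the posterior branch (39.9%, 32.5 to 47.8, against 27.0%) and 45 in both (29.4%, 22.8 to 37.1, against 20.6%). At the other end, 54 regions (35.3%, 28.2 to 43.1) had a peak in all 10 lists, against 40.8% of all hPSC regions. Between the 28 and the 54, 71 (46.4% against 47.8%) were open in some but not all later lists. Calls also came back after a gap, in 27 regions (17.6% against 17.3%) of the anterior branch and 24 (15.7% against 16.0%) of the posterior. The intervals for closing on day 1, by day 4 in the posterior branch and by day 4 in both branches lay above the background. Those for closing by day 4 in the anterior branch, on day 2 in both branches and for permanent openness included it. The intervals take regions as independent, although the 153 lie around the same 9 genes, so neither outcome is a test.

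**Figure D1:**
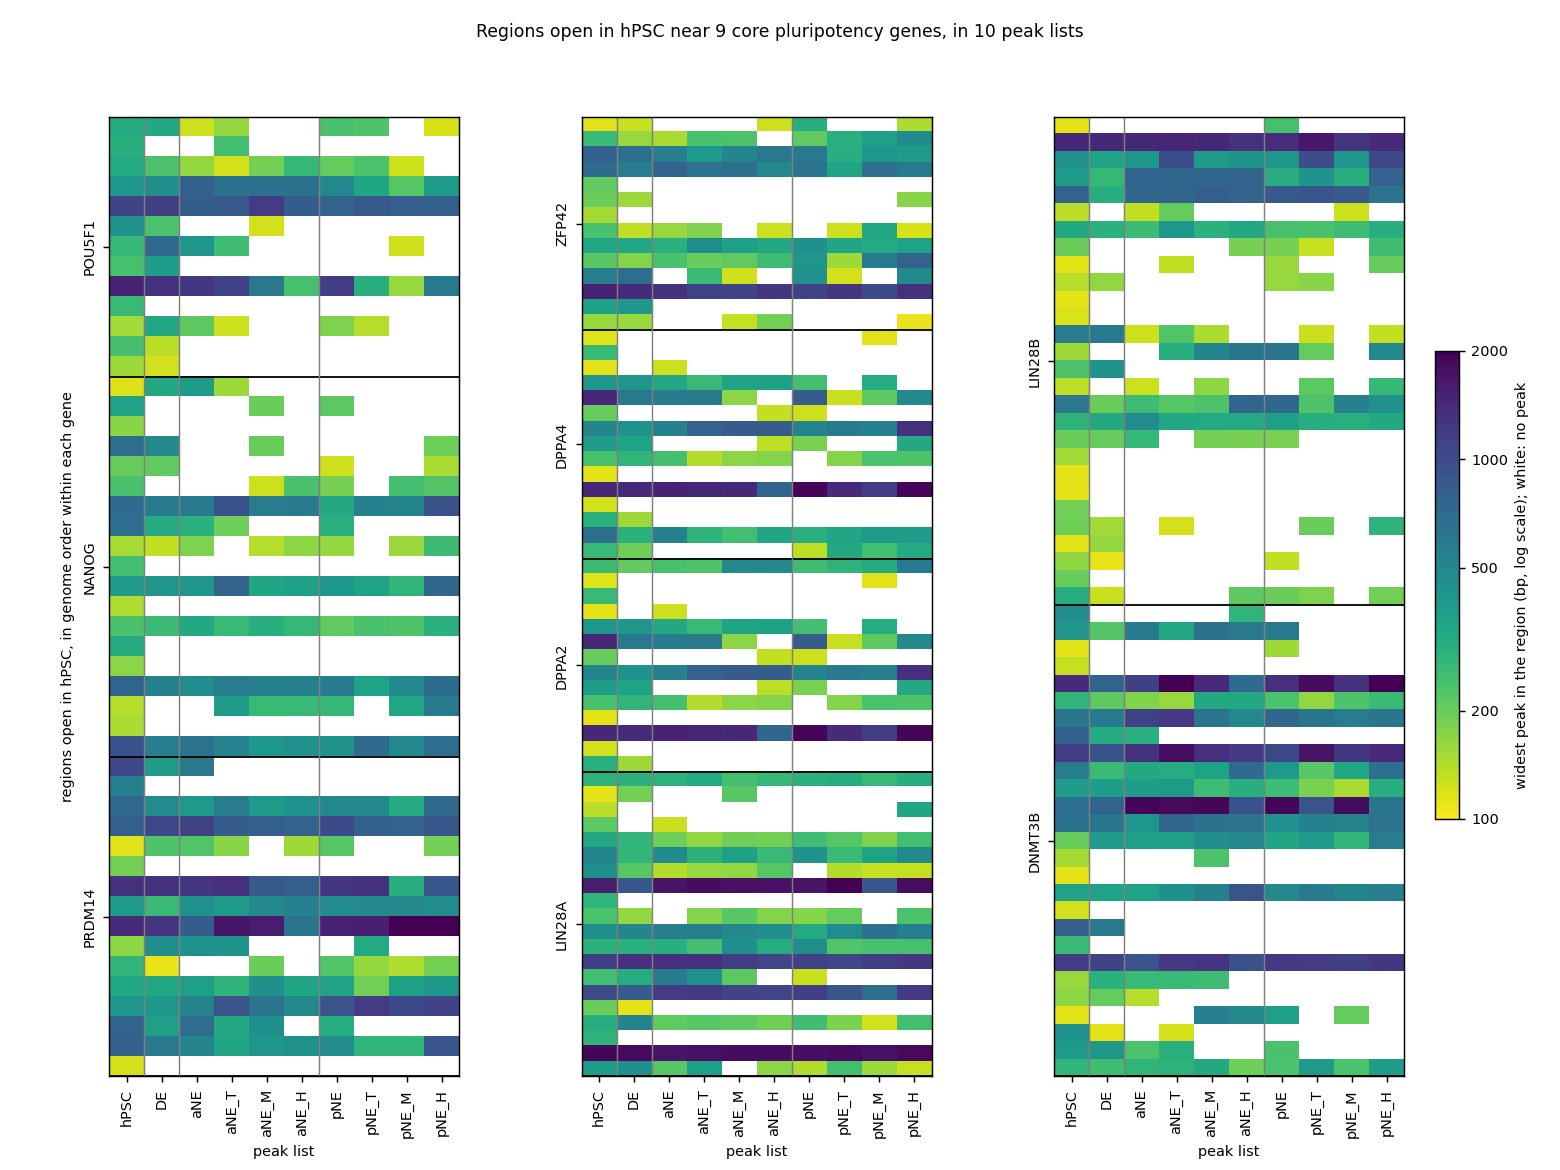
Each row is a region open in hPSC near a core pluripotency gene, in genome order within each gene, and each column a peak list; colour gives the widest peak of that list in the region (bp, log scale), and white means no peak. Rows filled across all columns are the 54 regions open in all 10 lists, and rows coloured only in the first column are the 28 regions open in hPSC alone; the 13 regions shared by the DPPA4 and DPPA2 windows appear under both.

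Narrow peaks closed first. The median width of the hPSC peak was 160.5 bp in the 28 regions lost on day 1 and 612 bp in the 54 regions open throughout, against 154 and 503 bp in the genome. The 28 ranged from 113 to 557 bp, and 113 bp was the narrowest peak of the hPSC list. Some of the 28 were thus at the lower limit of the list. Of the 50 member regions with an hPSC peak under 200 bp, 27 (54%) were closed by day 4 in both branches and 0 were open in all 10 lists, against 37.3% and 11.8% of all such regions. Of the 41 with a peak of 500 bp or more, 1 (2.44%) was lost on day 1, 4 (9.76%) closed by day 4 in both branches and 31 (75.6%) were open throughout, against 0.67%, 3.69% and 80.4%. If every member region had closed as often as all hPSC regions of its width class and of its class of distance to a gene end, 30.6 of the 153 would have closed by day 4 in both branches and 64.9 would have been open in all lists; 45 and 54 were counted. Width here is the length of the called peak, not its height, which the lists do not give. Where a list had several peaks in a region, the width given is that of the widest, so it can understate the bases open there.

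The 36 member regions within 1 kb of a protein-coding gene end were open in all 10 lists in 15 cases (41.7%), against 76.3% of all such regions. Of these 36, 5 (13.9% against 4.6%) closed on day 1 and 6 (16.7% against 8.02%) by day 4 in both branches. Of the 117 regions farther away, 39 were open in all lists (33.3% against 36.7%). The difference from the background in permanent openness was thus larger near gene ends than far from them. Not all of these ends belong to the 9 genes: 98 of the 153 regions had a member's end as the nearest end, and the others lay closer to neighbours.

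POU5F1 encodes OCT4, the POU-domain factor at the centre of the circuit. The region over its start, chr6:31170311-31170789, had a peak of 239 bp in hPSC and of 378 bp in DE, and no peak in any of the 8 later lists. It closed on day 2 in both branches. Upstream, chr6:31171779-31173286 began 1097 bp before the start, in the stretch where enhancers of the gene are known to lie, and was open in all 10 lists. Its widest peak measured 1508 bp in hPSC, 1305 in DE and 1249 in aNE, then 1118 in aNE_T, 604 in aNE_M and 238 in aNE_H. In the posterior branch it measured 1160 bp in pNE, 302 in pNE_T, 159 in pNE_M and 597 in pNE_H. This upstream region thus stayed called, but its widest peak became narrow in 5 of the 6 day 4 lists, with aNE_T as the exception. In each of these 5 lists the region was split and held a second, narrower peak, which the widths above leave out.

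Of the 13 POU5F1 regions, 4 were closed by day 4 in both branches, 1 of them on day 1 (chr6:31180662-31180927, a 266 bp peak) and 3 on day 2 (the start, chr6:31189324-31189564 and chr6:31192580-31192734). POU5F1 was the member with the most regions lost on day 2 in both branches; the other members had 0 to 2. A region inside the gene, chr6:31165169-31165886, was 269 bp in hPSC, 718 in DE, 416 in aNE and 254 in aNE_T, and returned on day 4 only in pNE_M (124 bp). Another 2 regions closed in the posterior branch alone, chr6:31159391-31159821 near TCF19 and chr6:31137336-31137646 at PSORS1C2, each with a single late anterior peak (122 bp in aNE_M and 249 bp in aNE_T). The 3 regions open throughout were the upstream region and 2 near CCHCR1. The bases inside peaks in the whole POU5F1 window were 106% of hPSC in DE, 66.3% in aNE and 53.4% in pNE, and between 31.7% (pNE_M) and 62.3% (aNE_T) on day 4. The build also holds 7 haplotype scaffolds of this chromosome 6 segment, on which the lists placed 1303 to 2464 peaks, and their part in the POU5F1 values was not tested.

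**Figure D2:**
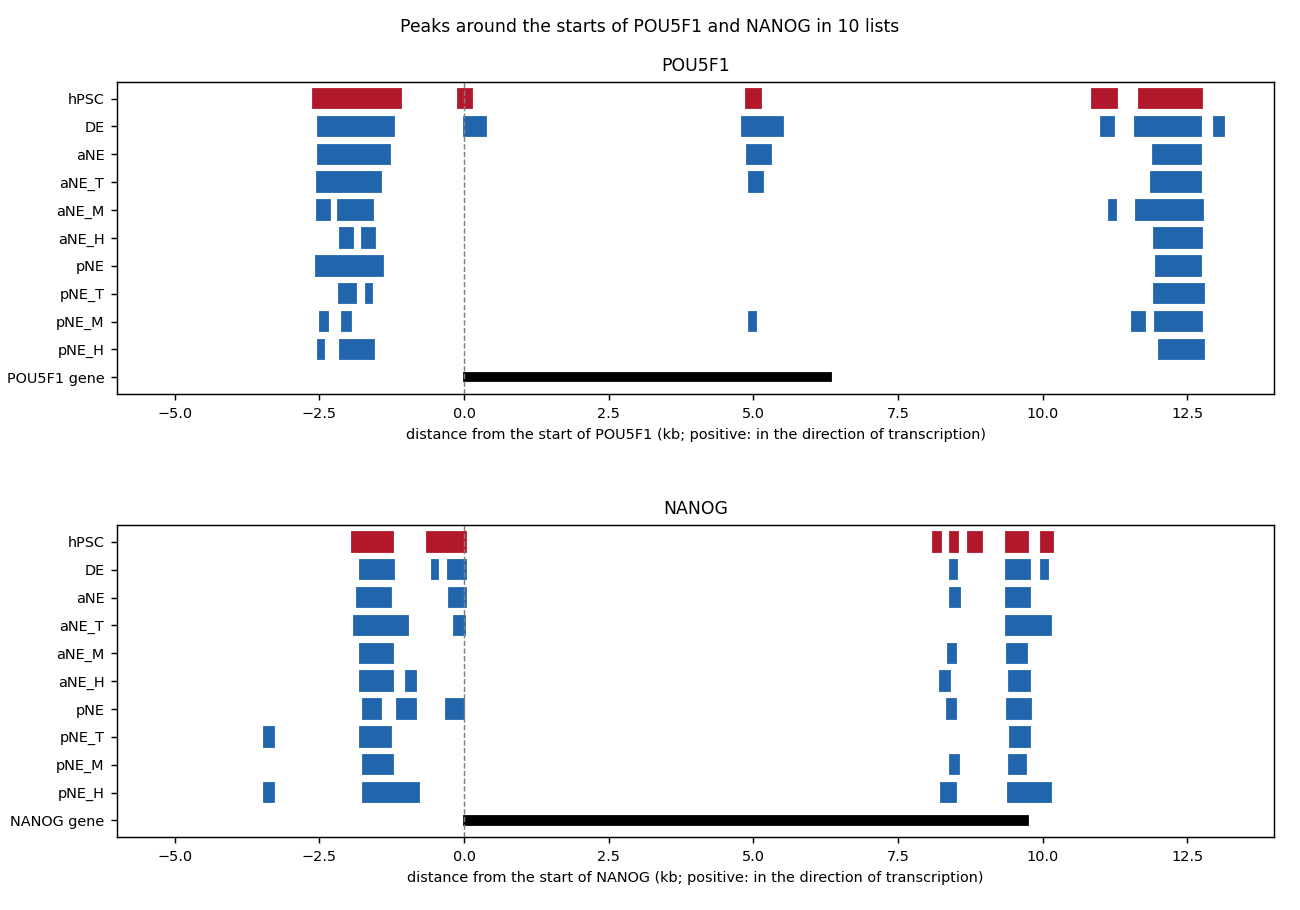
Bars are peaks of each list around the starts of POU5F1 and NANOG, by distance from the outermost annotated start in kb (positive in the direction of transcription); red is hPSC, blue the later lists, and black the gene. The peak over the POU5F1 start is present in hPSC and DE only, the NANOG start lies inside a peak in hPSC, DE, aNE and aNE_T and just past the end of the pNE peak, and a region upstream of each start is called in all 10.

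NANOG is a homeodomain factor whose promoter holds a composite OCT4-SOX2 element. The 250 bases before its RefSeq start (chr12:7789152-7789401, plus strand, GRCh38.p14) are shown because this element lay inside a peak in some lists only. Capitals mark the match to TTGCAT, any base, then ACAATG.

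NANOG: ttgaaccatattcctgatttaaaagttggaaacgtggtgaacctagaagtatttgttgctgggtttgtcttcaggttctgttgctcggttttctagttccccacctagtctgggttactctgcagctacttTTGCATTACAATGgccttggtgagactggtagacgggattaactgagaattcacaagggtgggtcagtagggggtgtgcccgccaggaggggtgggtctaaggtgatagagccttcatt

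The match lies at -119 to -107 from the start (chr12:7789283-7789295) and was inside a peak in hPSC, DE, aNE, aNE_T and pNE, and in no other list. On both strands these letters occur in 4 of 35116 RefSeq promoter windows of 300 bases (0.0114%), and among the 6 members with a window only in NANOG. The shorter parts, which overlap the composite in NANOG, are common: TTTGCAT is in 4.46% of windows and ACAATG in 10.8%, the latter also in LIN28B. The motif was chosen with the NANOG promoter in view, and a match is a description of letters, not of binding.

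The region over the NANOG start, chr12:7788757-7789442, had widest peaks of 680 bp in hPSC, 317 in DE, 296 in aNE, 299 in pNE and 194 in aNE_T. None was called in aNE_M, aNE_H, pNE_T, pNE_M or pNE_H. The start itself lay inside the peaks of hPSC, DE, aNE and aNE_T, while the pNE peak ended at -11 from it. The region was therefore open through day 2 in both branches and, on day 4, only in anterior cells in telencephalon medium. The region just upstream, chr12:7787472-7788617, stayed open in all 10 lists. Its widest peak measured between 323 bp (pNE) and 956 bp (pNE_H), with 705 bp in hPSC, and pNE and aNE_H had a second peak there. The NANOG start region closed later than that of POU5F1, on day 4 rather than day 2, and on day 4 not in aNE_T.

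Of the 19 NANOG regions, 9 had no peak in DE and 6 closed on day 1 for good, all with hPSC peaks of 143 to 315 bp. The widest of these was chr12:7825736-7826050, and chr12:7798116-7798361 (246 bp) lay inside the gene. No NANOG region closed on day 2 in both branches. By day 4, 7 had closed in the anterior and 9 in the posterior branch, 6 of them in both, and 5 were open in all lists. Among those that closed in 1 branch only, chr12:7750307-7750792 near CLEC4C was 117 bp in hPSC, 328 in DE, 386 in aNE and 155 in aNE_T, with no peak in any posterior list. A region of 683 bp in hPSC, chr12:7757972-7758661, was lost on day 2 and reappeared at 201 bp in aNE_M and 193 bp in pNE_H. The bases inside peaks in the NANOG window were already 58.8% of hPSC in DE, the lowest of the 9 genes at day 1. They lay between 32.9% (pNE_T) and 87.3% (pNE_H) on day 4. NANOG has near-identical processed copies elsewhere in the genome, and how reads matching several places were placed is not given in the sources used here.

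PRDM14 encodes a PR-domain zinc finger protein that represses lineage genes in human pluripotent cells. The region over its start, chr8:70070123-70072580, was open in every list. Its widest peak measured 1378 bp in hPSC, 1255 in DE and between 631 (aNE_H) and 2404 bp (pNE_M) afterwards. All lists but pNE_M and pNE_H held further peaks in this region. Its distal regions behaved differently. The widest hPSC peak of any member region that closed in both branches was chr8:70007025-70008082, 63.2 kb downstream of the start, at 1058 bp in hPSC, 387 in DE and 601 in aNE, with none in pNE or on day 4. The widest peak of any member found in hPSC alone was chr8:70026317-70026873 (557 bp), 44.4 kb downstream. Upstream, chr8:70104015-70105782 was 775 bp in hPSC and was open in DE, aNE, aNE_T, aNE_M and pNE, but in neither aNE_H nor any posterior list on day 4. In all, 4 of the 16 PRDM14 regions closed by day 4 in both branches and 8 were open in all lists. The start of this gene thus stayed called while a pair of wide distal regions was lost.

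ZFP42 encodes REX1, a zinc finger protein long used as a marker of pluripotent cells. Its start region, chr4:187995283-187996075, was open in all lists and narrowed from 788 bp in hPSC to 666 in DE, 554 in aNE and 602 in pNE. Anterior cells on day 4 had 402 bp (aNE_T), 512 bp (aNE_M) and 609 bp (aNE_H), posterior cells 307 bp (pNE_T), 415 bp (pNE_M) and 390 bp (pNE_H). All day 4 widths were below the hPSC width, and the 3 posterior ones included the narrowest. Of the 14 ZFP42 regions, 3 closed by day 4 in both branches. Of these, chr4:188042080-188042496, 362 bp in hPSC and 404 in DE, closed on day 2, and 2 narrower regions just past the 3′ end (206 and 149 bp) closed on day 1. A region of 560 bp in hPSC, chr4:188023169-188023980, had 675 bp in DE, no peak in aNE, 259 bp in aNE_T, 124 bp in aNE_M and none in aNE_H. In the posterior branch it had 438 bp in pNE, 121 bp in pNE_T, none in pNE_M and 476 bp in pNE_H, so it was missing from some lists of each branch.

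DPPA4 and DPPA2 are neighbours on chromosome 3, their products work as a pair on chromatin, and their windows share 13 hPSC regions, so their counts are not independent. The DPPA2 start region, chr3:109316276-109316714, measured 416 bp in hPSC, 421 in DE, 327 in aNE and 244 in pNE, and was open in 8 lists. It had no peak in pNE_T or pNE_H, 314 bp in pNE_M and 264 to 361 bp in the 3 anterior day 4 lists. The region over the RefSeq start of DPPA4, chr3:109336389-109337966, was open in all 10 lists, at 509 bp in hPSC and 434 in DE, and at its widest in pNE_H (1316 bp). The outermost annotated start of DPPA4 lay in no hPSC region. The nearest one, chr3:109339834-109340251, began 198 bp upstream and was open in hPSC (383 bp), DE (353), pNE (183), aNE_H (134) and pNE_H (327), so it closed on day 2 in the anterior branch and came back in hindbrain medium.

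Just past the 3′ end of DPPA4, in chr3:109324291-109326040, the widest peak measured 1425 bp in hPSC, 599 bp in DE, 574 bp in aNE and 851 bp in pNE. Later it had 599 bp in aNE_T, 169 in aNE_M, none in aNE_H, 129 in pNE_T, 210 in pNE_M and 487 in pNE_H. By contrast, the widest peak in chr3:109355182-109357111, upstream of DPPA4, stayed between 755 and 1923 bp in all lists. In the DPPA4 window 5 of 15 regions closed by day 4 in both branches and 3 were open throughout. In the DPPA2 window it was 5 of 14 and 3. A region upstream of DPPA4 went with the branch: chr3:109382540-109382902 (264 bp in hPSC) was absent from all anterior lists but present in all posterior ones, at 134 to 327 bp.

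Promoters poor in CpG are less often open in every list, and the members' RefSeq windows differed in this. Among windows of protein-coding genes open in hPSC, 61.1% of those with under 10 CpG were open in all 10 lists, against 89.3% with 10 to 19 and 97.1% with 20 or more. The NANOG window holds 5 CpG, that of DPPA4 5, that of DPPA2 7, the RefSeq window of DNMT3B 3, ZFP42 24, and the pair of LIN28B windows 37 and 8, against a median of 21. The windows of NANOG and DPPA2 were open in 5 and 8 lists and those of ZFP42, DPPA4 and DNMT3B in all 10. The LIN28B windows with 37 and 8 CpG were open in 10 and 9. The CpG-poor windows thus included some open in all lists and some not. The DNMT3B window belongs to a start inside the gene (chr20:32779852), and its outermost start (chr20:32762385) has no window, so its CpG number was not read. The DPPA4 and LIN28B windows likewise lie at starts inside the outermost one. The 250 bases before the DPPA2 and ZFP42 starts show the contrast in CpG number, with each CG in capitals. They are chr3:109316518-109316767 (DPPA2, minus strand) and chr4:187995521-187995770 (ZFP42, plus strand), both from RefSeq for GRCh38.p14.

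DPPA2: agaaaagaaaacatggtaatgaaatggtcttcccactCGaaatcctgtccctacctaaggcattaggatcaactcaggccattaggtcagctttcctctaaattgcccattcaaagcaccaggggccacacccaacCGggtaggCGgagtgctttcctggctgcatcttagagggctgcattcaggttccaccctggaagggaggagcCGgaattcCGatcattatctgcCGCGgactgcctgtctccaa

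ZFP42: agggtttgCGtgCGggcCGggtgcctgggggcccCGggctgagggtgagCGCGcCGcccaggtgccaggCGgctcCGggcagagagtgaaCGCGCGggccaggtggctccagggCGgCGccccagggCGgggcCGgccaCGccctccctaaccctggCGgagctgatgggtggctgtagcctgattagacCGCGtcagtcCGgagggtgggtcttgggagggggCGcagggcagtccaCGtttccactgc

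The ZFP42 window also holds 3 GC boxes (GGGCGG or its complement, found in 45.0% of windows), and the DPPA2 window none. Peaks of hPSC covered 242 of the 300 bases of the DPPA2 window, those of the 3 anterior day 4 lists 162 to 247, and those of pNE_T and pNE_H 0. The ZFP42 window was covered over 300 bases in hPSC and over at least 199 in every list.

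**Figure D3:**
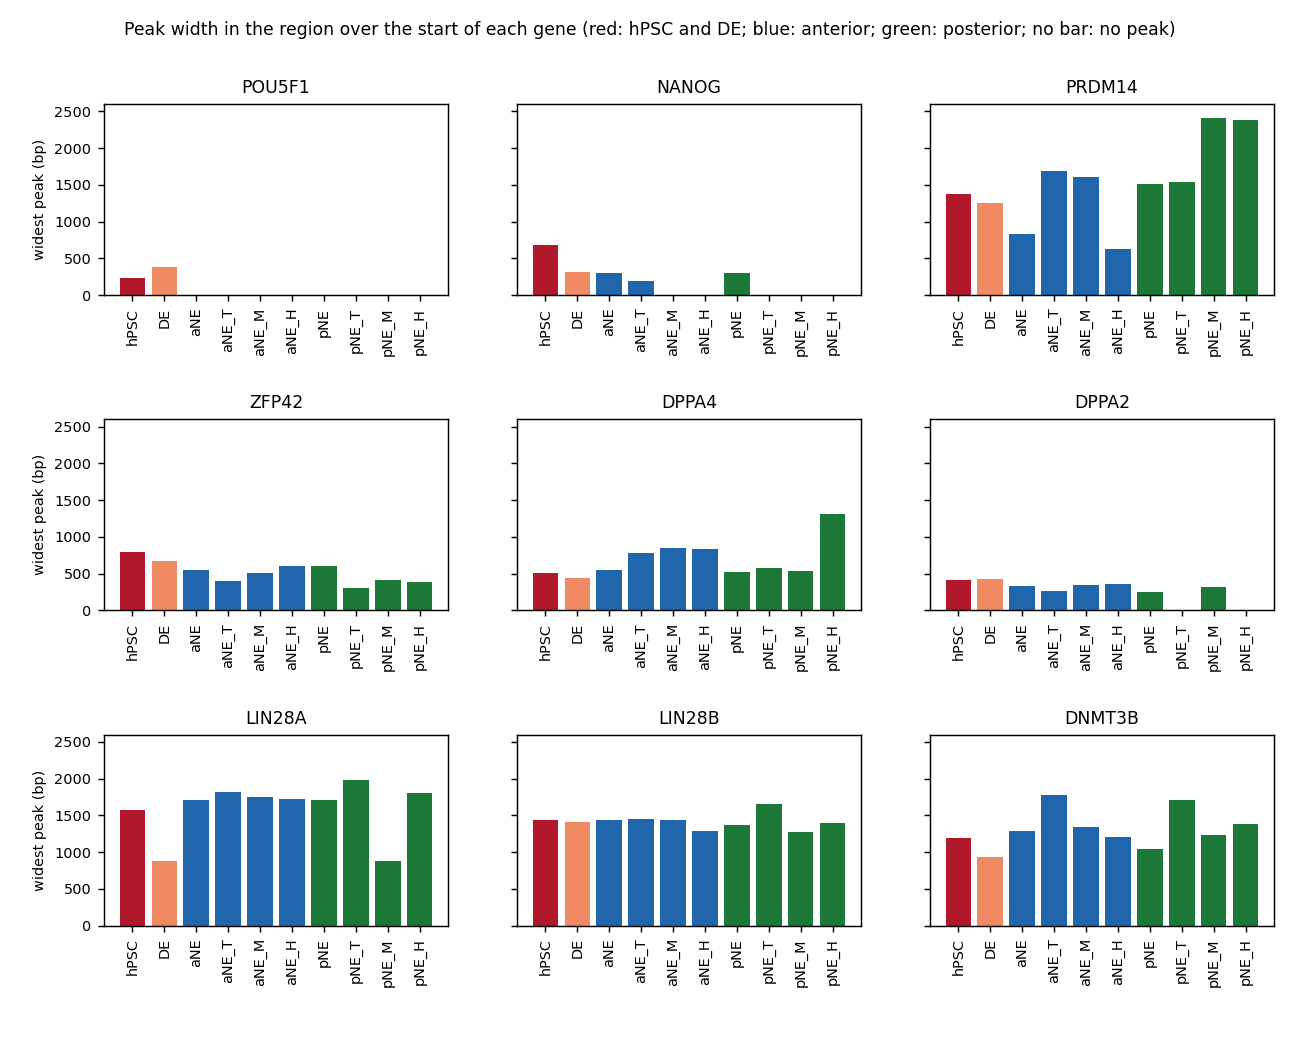
Bars give the widest peak (bp) of each list in the region over the start of each gene, with hPSC in red, DE in orange, anterior lists in blue and posterior lists in green; for DPPA4 and LIN28B, whose outermost start lies in no hPSC region, a RefSeq start is used. POU5F1, NANOG and DPPA2 lack a bar in 8, 5 and 2 lists, while the other 6 genes have one in all 10.

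LIN28A and LIN28B encode RNA-binding proteins that bind let-7 precursors. The LIN28A start region, chr1:26409119-26411167, was open in every list. Its widest peak measured 1571 bp in hPSC, 884 in DE and pNE_M, and 1707 to 1985 bp in the other 7. In DE and pNE_M the region was split, with a second peak at -1550 to -960 (DE) and -1587 to -944 (pNE_M) from the start. Of the 20 LIN28A regions, 10 were open in all lists and 4 closed by day 4 in both branches. The widest of those 4 were chr1:26470895-26471180 near DHDDS (286 bp) and chr1:26411170-26411449 inside the gene (280 bp), both in hPSC alone. At the 3′ end of the gene, chr1:26429546-26430122 was 247 bp in hPSC, 312 in DE, 577 in aNE, 437 in aNE_T, 212 in aNE_M and 127 in pNE. It was absent from aNE_H and from all posterior day 4 lists. LIN28A kept the bases inside its peaks between 77.5% and 103% of hPSC in all later lists.

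LIN28B, a long gene, had 28 hPSC regions, of which 11 (39.3%) closed by day 4 in both branches, the highest share of the 9 genes as deposited. With the widest peaks of each list, in equal number, it was 4 of 16, against 4 of 11 for POU5F1, and with the widest 50% of peaks 2 of 9, so the rank changed with these settings, as it did at 50% coverage (10 of 23, against 9 of 17 for NANOG). Of the 11, 7 closed on day 1, with hPSC peaks of 113 to 199 bp. The regions over its RefSeq starts were open in all lists: chr6:104940211-104942048 measured 1274 to 1653 bp in the 10 lists, with 1437 in hPSC, and chr6:104956768-104957774 measured 302 bp in DE and 636 to 893 bp in the others. The first of these starts lay inside a peak in all 10 lists, and the other in all but DE. The widest LIN28B region lost on day 2 in both branches was chr6:105024611-105025100, inside the gene, at 231 bp in hPSC and 422 in DE. A region of 567 bp in hPSC, chr6:105014195-105014789, measured 575 bp in DE, 125 in aNE, 226 in aNE_T and 144 in aNE_M. It had no peak in aNE_H, pNE or pNE_M, and 127 and 131 bp in pNE_T and pNE_H. The 11 regions lost in both branches had hPSC peaks of 113 to 231 bp; 6 lay inside the gene and 5 outside it, and none was over a RefSeq start.

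LIN28B also gained regions. Near the 9 genes 109 of 262 regions were open in a later list but not in hPSC, a lower share than the 293189 of 493444 in the genome. The LIN28B window held 45 of the 109. It is also the longest window, 246307 bp against 106346 to 146972 bp for the other genes. Of the 45, 9 (20.0%) were open in at least 8 of the 9 later lists, against 4.18% of all regions not open in hPSC. LIN28A had 1 such region, chr1:26408683-26408918, and the other 7 genes had 0. Of the 9 LIN28B regions, chr6:105056465-105057248 (up to 771 bp), chr6:105070446-105071111 (666 bp) and chr6:105091246-105091711 (442 bp) were open in all 9 later lists. Another 4 were absent from DE and present in all 8 lists from day 2 on, the widest being chr6:105022438-105023050 (607 bp). Together with these gains, the bases inside peaks of the LIN28B window were at least 100.2% of hPSC in every later list and reached 154% in pNE_H, where the main chromosomes had 152%. LIN28B was the only window of the 9 whose peak bases were above hPSC in all 6 day 4 lists.

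DNMT3B encodes the de novo DNA methyltransferase that is abundant in pluripotent and early epiblast cells. Its start region, chr20:32761535-32763509, was open in all lists, at 1194 bp in hPSC and between 936 (DE) and 1781 bp (aNE_T) later. A second RefSeq start, in chr20:32779391-32781373, had wider peaks in aNE, aNE_T, aNE_M, pNE and pNE_M (1809 to 1918 bp) than in hPSC (666 bp). Of the 27 DNMT3B regions, 12 were open in all lists and 8 closed by day 4 in both branches. Among the 8 were 2 wide ones: chr20:32751743-32752529, at -9.9 kb from the start, was 787 bp in hPSC, 315 in DE and 298 in aNE, and chr20:32810790-32811649, 1434 bp past the 3′ end, was 806 bp in hPSC and 596 in DE and closed on day 2 in both branches.

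The DNMT3B window was the one in which closing differed most by branch. By day 4, 6 of its 27 regions had closed in the posterior branch only and 0 in the anterior branch only. Most of these lay nearer to a neighbour than to DNMT3B, which was the nearest gene for 12 of the 27. Of the posterior-only regions, chr20:32798390-32798630 was nearest to DNMT3B. The others were nearest to COMMD7, MAPRE1 or EFCAB8. In chr20:32724231-32724895, at -37.5 kb, the widest peak measured 417 bp in hPSC and 222 bp in DE, then 585 bp in aNE against 582 bp in pNE. Day 4 anterior cells had 330 bp (aNE_T), 648 bp (aNE_M) and 602 bp (aNE_H), and no posterior list of that day had a peak there. Likewise chr20:32723464-32723935 was 458 bp in hPSC and 283 bp in aNE_H, and chr20:32857000-32857442 was 439 bp in hPSC and 122 bp in aNE_T, with no posterior peak on day 2 or 4. The first of these was open in every anterior list, the others in 1 late anterior list each.

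Over all 9 genes, 16 of the 153 regions (10.5%, against 6.34% of all hPSC regions) had closed by day 4 in the posterior branch only, and 6 (3.92% against 6.16%) in the anterior branch only. Without DNMT3B the counts were 10 and 6 of 126. Of the 16, 9 had a peak in aNE_T. On day 2 the branches were even: of the 106 regions open in hPSC and DE, 69 were open in both aNE and pNE, 11 in aNE only (10.4% against 6.79% of all such regions), 10 in pNE only (9.43% against 8.57%) and 16 in neither (15.1% against 16.1%). The step from day 2 to day 4 removed 9.52% of the aNE-open regions in aNE_T, 19.0% in aNE_M and 23.8% in aNE_H, against 9.82%, 11.9% and 16.5% of all such regions. From pNE it removed 23.6% in pNE_T, 27.0% in pNE_M and 18.0% in pNE_H, against 19.4%, 18.5% and 8.65%. The imbalance between branches came with the day 4 lists, and aNE_T lost the smallest share. The imbalance turned when peaks had to cover 50% of a region. Then 49.2% had closed by day 4 in the anterior and 46.9% in the posterior branch, against 39.2% and 40.8% of all hPSC regions. It was small over regions nearest to a member's end (34 and 35 of 98) and with the widest 50% of peaks (30 and 32 of 83). Without replicate values the difference between branches could not be tested. The pNE_H list, the longest, lost fewer regions than pNE_T and pNE_M; with it left out, an alternative added after seeing the data, the share closed by day 4 in the posterior branch was 45.8% against 34.6% of all hPSC regions.

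**Figure D4:**
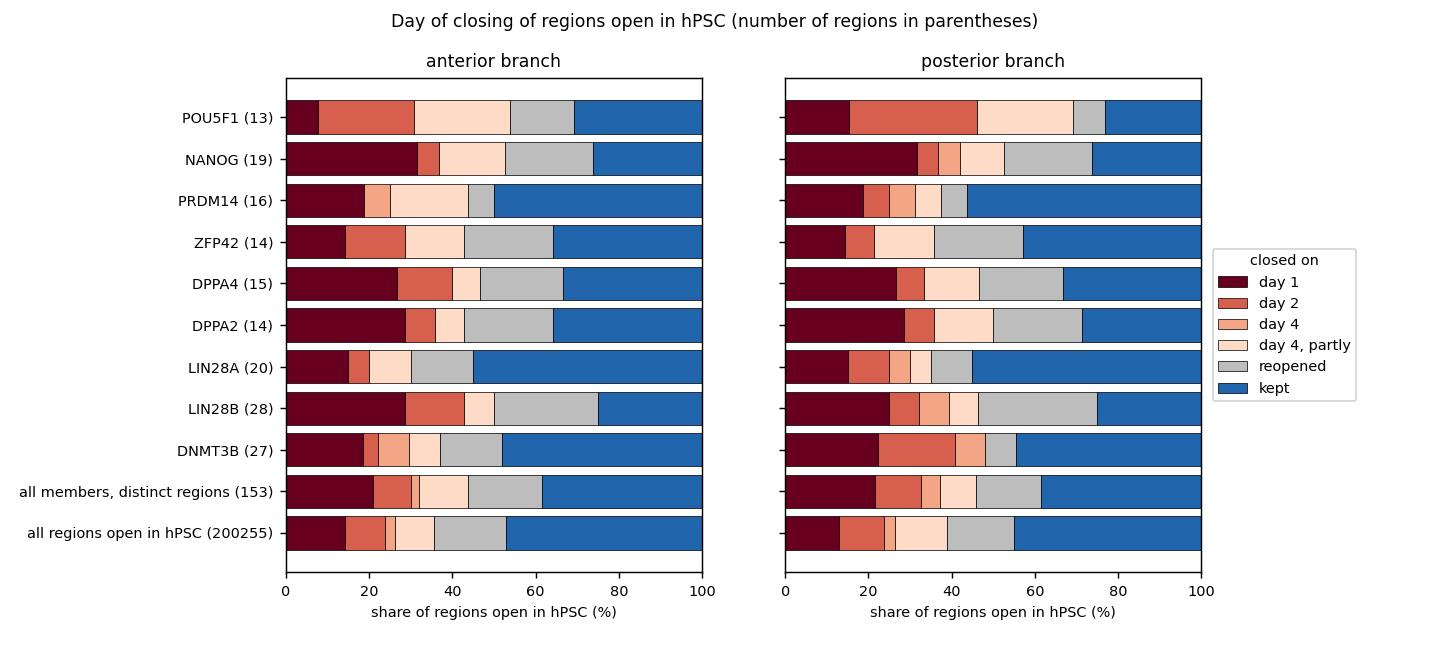
Stacked bars give the share (%) of regions open in hPSC by the day on which they closed, for each gene, for the distinct regions of all members and for all hPSC regions, in the anterior (left) and posterior (right) branch; "partly" means lost in 1 or 2 of the 3 day 4 lists, and "reopened" means that a list lacks the region and a later one has it. Day 1 losses make up 20.9% of the member regions in the anterior and 21.6% in the posterior branch, against 14.3% and 12.8% in the genome, kept regions 38.6% in each branch against 47.0% and 45.1%, and the kept part is largest for LIN28A and PRDM14.

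Per gene, the share of hPSC regions closed by day 4 in both branches ran from 20.0% (LIN28A) and 21.4% (ZFP42) through 25.0% (PRDM14), 29.6% (DNMT3B), 30.8% (POU5F1), 31.6% (NANOG), 33.3% (DPPA4) and 35.7% (DPPA2) to 39.3% (LIN28B). The median over the 9 was 30.8%, and over 18229 protein-coding genes with at least 5 hPSC regions it was 18.2%. With 13 to 28 regions a gene, neighbours in this order are 1 or 2 regions apart and are not told apart. The share open in all lists was 50.0% for LIN28A and PRDM14 and 44.4% for DNMT3B, and between 20.0% and 35.7% for the other 6, with a median of 26.3% against 47.1% over all genes.

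**Figure D5:**
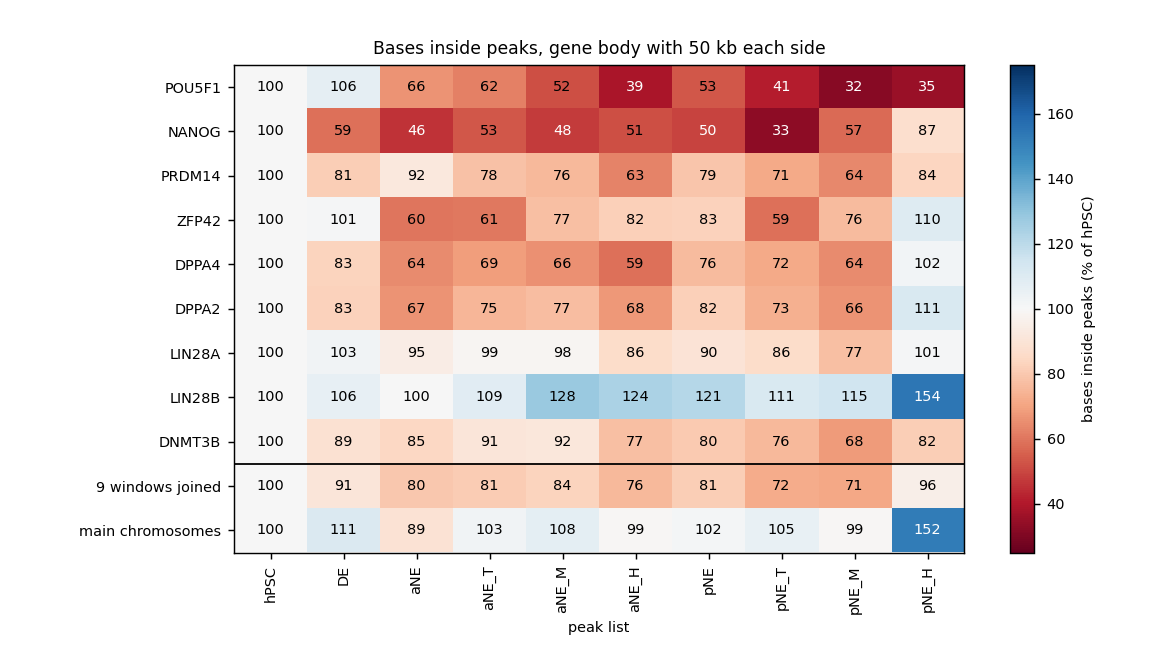
Each cell gives the bases inside peaks in the window of a gene (body with 50 kb each side) as a percent of the hPSC value, for each list, with the 9 windows joined and the main chromosomes below. The joined windows lie below 100% in all 9 later lists (71.3% in pNE_M to 95.8% in pNE_H), while the main chromosomes lie between 89.0% and 152%; LIN28B is the row at or above hPSC.

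The bases inside peaks, which need no merging of regions, also fell near the 9 genes. In the joined windows DE had 90.7% of the hPSC value, aNE 79.6% and pNE 81.3%. Day 4 values were 81.2% in aNE_T, 83.6% in aNE_M, 75.5% in aNE_H, 72.2% in pNE_T, 71.3% in pNE_M and 95.8% in pNE_H. The main chromosomes gave 111%, 89.0% and 102%, then 103%, 108%, 99.1%, 105%, 99.3% and 152%. The joined windows were below the main chromosomes in each of the 9 lists, with pNE_H, the longest list, high in both.

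A list of 25 other genes of pluripotent cells had 454 hPSC regions in the same kind of window, 5 of them shared with the 9 genes. Of these, 116 (25.6%) closed by day 4 in both branches and 189 (41.6%) were open in all lists, between the 9 genes and the genome for closing. The 5 NODAL pathway genes, among them NODAL itself and its antagonists LEFTY1 and LEFTY2, had 24 of 72 regions closed (33.3%). The 8 transcription factors had 33 of 141 (23.4%), the 3 DNA methylation genes 18 of 86 (20.9%) and the 9 remaining genes 46 of 164 (28.0%). KLF4, a reprogramming factor, had 0 of 9 regions closed in both branches, and no gene of the list had all of its regions closed. The closing shares of the 9 core genes thus overlapped with those of the related groups, and no test between them was made.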

How the data were processed

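The authors deposited 10 peak lists, 1 per group, each with chromosome, start and end only; the deposited lists hold no score, signal or other value. Build hg38 and the tools Bowtie2, MACS2 and bedtools are named in the submitters' processing notes, without versions, order or role; the peak threshold and how 3 replicates became 1 list are not given in the sources used here. A looser threshold in a later list would add narrow peaks and give fewer closings. In hPSC it would add narrow regions, which closed more often here. How far the threshold shaped the closings was not tested. Overlapping peaks (1 bp or more) of all lists were merged on the main chromosomes (Python 3.11.15, numpy 2.4.6, pandas 2.3.3, figures with matplotlib 3.10.9). Genes and promoter windows (250 bases before to 50 after a start) came from RefSeq on GRCh38.p14; the promoter table holds 6 of the 9 members. It gives no strand for POU5F1, PRDM14 and LIN28A, for which the known strand was used. A region closed on day 1, 2 or 4 in a branch when that list and all later lists of the branch lacked it, and by day 4 when its 3 day 4 lists lacked it. Named were all 9 genes, the region over each start, per gene the widest hPSC peak of the closing classes, regions that differ between branches, and related genes with all or none of their regions closed; other regions were chosen after their values were seen. The members and lists were chosen with earlier results of these data known. Wilson intervals (95%) cover the counting of regions only. The class calls were run on simulated lists made from 60000 merged regions, with a fixed pattern for each class, and 100% were recovered in each branch. Peaks could not split, join or drop out there, so this checks the code and not calls from real lists. Alternatives were overlap by 50% coverage, single hPSC peaks, lists of equal length, the widest 50%, a 10 kb flank, nearest gene ends, distal regions, 500 bp windows and 1 list left out. Reads were not used here, and peaks off the main chromosomes were only counted. The marker list of posterior neural cells is not reported here.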

Additional observations from a re-analysis of the deposited data

Results flagged for a closer look

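Outside the main chromosomes, hPSC had 2357 peaks on the 7 haplotype scaffolds of the chromosome 6 segment that holds POU5F1, a signal in data that no comparison above uses. DE had 2464 and the other 8 lists between 1303 and 1633.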

How the results depend on the processing

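No paired analysis was possible because each group has 1 peak list without replicate values; leaving out replicates was not possible for the same reason. Of 84 alternative values of the main shares and counts, 73 stayed within their interval or within 1.5 times. Requiring peaks to cover 50% of a region moved the shares without a peak to 44.5% (DE), 57.8% (aNE) and 54.7% (pNE). Over all hPSC regions they were then 34.3%, 53.7% and 50.8%. The shares closed by day 2 moved to 43.8% (anterior, against 35.0%) and 40.6% (posterior, against 36.0%). That closed by day 4 in the anterior branch moved to 49.2% against 39.2% (posterior 46.9% against 40.8%). The share open in all lists moved to 15.6% against 21.6%. Keeping the widest peaks of each list, in equal number, gave 34.7% without a peak in aNE, against 29.7%. Fewer regions were open in hPSC with the widest 50% of peaks (83), a 10 kb flank (78) and nearest gene ends (98). Every closing share that was rerun stayed above its background in each of the 9 or 10 settings run for it. The pooled shares closed in both branches, by day 4 and on day 2, were not rerun. The day 2 share was below its background as deposited (5.88% against 6.83%). The share open in all lists was below it except with equal-length lists (39.8% against 39.4%). Of 117 values of single genes, 42 moved. Peak lists without heights limit the precision, and depth is unknown.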
